A study of Mus musculus with 9 samples.

Results

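The genes described here encode the proteins of the mitochondrial ribosome in RAW264.7 cells, a mouse macrophage line. They were taken by name, as the protein-coding genes of GENCODE M21 whose symbol begins with Mrpl or Mrps followed by a digit. Of the 28137 genes in the table, 77 met this rule, and all 77 passed the filter on low values in every comparison. By their known place in the particle, 50 belong to the large subunit and 26 to the small subunit. The remaining gene, Mrps36, carries the name but encodes a subunit of the 2-oxoglutarate dehydrogenase complex, an enzyme of the TCA cycle. Mrps30 and Mrps18a are named for the small subunit and sit in the large subunit, where they were counted.

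The mitochondrial ribosome (mitoribosome) translates the few mRNAs of the mitochondrial genome, which encode core subunits of the respiratory chain and of ATP synthase. Its rRNAs are transcribed in mitochondria, whereas all its proteins are made from nuclear genes, translated in the cytosol and imported. Some of these proteins have bacterial counterparts and others are specific to mitochondria. Inflammatory macrophages are known for a shift from respiration towards glycolysis, so that the machinery that makes respiratory chain subunits is of interest in this cell.

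The study examined how SFRP2, a secreted modulator of Wnt signaling, affects macrophage polarization and energy metabolism. All 9 libraries were from RAW264.7 cells that received lipopolysaccharide, so that no unpolarized group is included. Of these libraries, 3 were from cells transfected with control siRNA (NC siRNA), 3 with SFRP2 siRNA and 3 with RAB6A siRNA. RAB6A is a small GTPase of Golgi traffic. Per the labels, siRNA was used at 60 nM for 6 h, complete medium followed, and lipopolysaccharide at 100 ng/ml was added after 12 h and kept for 24 h before RNA was extracted. The methods of the study also name IFN-γ for polarization, and give another siRNA concentration and transfection reagent than the labels. For these libraries it is not stated in the sources used here whether those of a group came from separate cultures. The methods speak of independent experiments for the data in general, and the supplement names its SFRP2 siRNA sequences by the same numbers as the SFRP2 siRNA libraries, without tying them together. It follows that all p-values measure the spread between these libraries, which may be technical.

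Values are FPKM, which corrects the fragments of each gene for its exon length and for library size. Depth ranged from 32758730 to 47149257 reads per library, and single members held 146 to 8683 reads in a library. Of the 11 macrophage markers in the table, 10 were expressed in each group and Mertk was near 0. The 18 markers of fibroblasts, epithelial cells, endothelial cells and lymphocytes in the table had mean levels under 1 FPKM in each group, and they summed to 2.77 to 6.23 FPKM in a library. Rab6a was 24.3, 27.3 and 25.5 FPKM with NC siRNA and 21.2, 20.7 and 20.4 with RAB6A siRNA, and fell by 0.31 ± 0.06 (SE) on the log2 scale, with a limma adjusted p of 0.0024. With a correction for GC content and length it was not called (-0.0902, limma adjusted p = 0.229). Sfrp2 had 2 to 4 reads in every library and was no lower with SFRP2 siRNA (0.0458, 0.0478 and 0.0267 FPKM) than with NC siRNA (0.0223, 0.0197 and 0.0218 FPKM), so that the knockdown could not be checked from these values. Fewer cells that express a gene and less of its RNA per cell cannot be told apart in such libraries.

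The promoters of 7 members are shown, picked after their values were seen, to give examples of large falls (Mrps2, Mrpl36, Mrps27) and large rises (Mrpl33, Mrpl52) with RAB6A siRNA and a pair of members that share a promoter region. Mrpl50, Mrps5 and Mrpl49 fell by more than Mrps27 and have none of the 4 motifs searched, as have Mrps36 and Mrpl14 among the rises, so that the stretches shown hold more motifs than the members as a whole. Of the 77 members, 68 had a promoter in the RefSeq table (build GRCm38.p6). Each stretch runs from 150 bases before to 30 bases after the transcript start, on the strand of the gene. Capitals mark matches, on either strand, to short motifs of factors known for genes of mitochondrial proteins: CCGGAAGT for GABP and other ETS factors, AAGATGGCG for YY1 and CACGTG, the E-box of MYC. GCGCATGCG for NRF1 was also searched and has no match in these stretches.
Mrps2 (chr2:28467916-28468095, plus strand): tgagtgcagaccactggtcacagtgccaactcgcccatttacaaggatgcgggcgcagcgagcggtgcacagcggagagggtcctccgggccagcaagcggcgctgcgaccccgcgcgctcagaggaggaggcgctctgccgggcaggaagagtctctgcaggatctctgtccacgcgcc
Mrpl36 (chr13:73330859-73331038, plus strand): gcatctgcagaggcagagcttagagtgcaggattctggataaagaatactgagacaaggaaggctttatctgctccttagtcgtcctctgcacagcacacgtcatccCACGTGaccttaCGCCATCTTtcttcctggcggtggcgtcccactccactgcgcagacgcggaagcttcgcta
Mrps27 (chr13:99344636-99344815, plus strand): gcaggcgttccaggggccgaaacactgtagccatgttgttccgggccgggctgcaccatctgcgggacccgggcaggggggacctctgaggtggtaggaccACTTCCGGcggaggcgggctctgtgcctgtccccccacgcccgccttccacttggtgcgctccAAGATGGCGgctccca
Mrpl33 (chr5:31613801-31613980, plus strand): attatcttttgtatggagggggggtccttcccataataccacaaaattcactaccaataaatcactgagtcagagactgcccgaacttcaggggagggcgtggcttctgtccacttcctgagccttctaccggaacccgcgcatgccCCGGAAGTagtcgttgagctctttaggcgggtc
Mrpl52 (chr14:54426759-54426938, plus strand): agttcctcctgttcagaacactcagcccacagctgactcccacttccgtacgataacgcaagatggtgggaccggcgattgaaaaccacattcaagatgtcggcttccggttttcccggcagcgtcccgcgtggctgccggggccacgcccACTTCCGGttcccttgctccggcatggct
Mrpl46 (chr7:78783060-78783239, minus strand): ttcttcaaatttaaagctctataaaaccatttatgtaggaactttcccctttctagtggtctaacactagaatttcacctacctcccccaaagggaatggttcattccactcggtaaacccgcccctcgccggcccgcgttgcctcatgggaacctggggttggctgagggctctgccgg
Mrps11 (chr7:78782981-78783160, plus strand): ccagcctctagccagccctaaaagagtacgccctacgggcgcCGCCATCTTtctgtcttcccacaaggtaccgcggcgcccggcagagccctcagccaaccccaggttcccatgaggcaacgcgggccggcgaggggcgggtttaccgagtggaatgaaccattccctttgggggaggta

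The stretch of Mrpl36 holds an E-box at position -43 and a YY1 motif at position -31, counted from the transcript start. Mrps27 holds a GABP motif at -49 and a YY1 motif at 15, and Mrpl33 and Mrpl52 hold a GABP motif at -3 and 2. Mrps2, the member with the largest fall, has none of the 4 motifs in its 300-base table entry. Mrpl46 and Mrps11 are transcribed away from each other from starts 42 bases apart, and 101 bases of their printed stretches are the same DNA. Over the 300-base entries, which reach 250 bases before the start, the NRF1 motif was in 7 of 68 members (10.3%) against 4.53% of 8483 genes tested, the GABP motif in 12 (17.6%) against 10.4%, the YY1 motif in 8 (11.8%) against 4.06%, and the E-box in 5 (7.35%) against 12.1%. At least 1 motif was found in 28 members (41.2%) and in 27.5% of the genes tested. These matches are descriptions of letters and not of binding.

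Members differed widely in level. With NC siRNA, their mean level ran from 1.51 to 116 FPKM with a median of 10.2, and 63 of the 77 lay between 5 and 50 FPKM. The highest was Mrpl12, the stalk protein that contacts translation factors, at 116, 120 and 111 FPKM with NC siRNA. Mrps21, Mrpl20, Mrpl41 and Mrps2 followed at means of 58.5 ± 3.65, 57.0 ± 2.65, 46.7 ± 2.74 and 43.6 ± 2.97 FPKM (SD, n = 3). Mrps21 and Mrpl20 overlapped between libraries, as did Mrpl41 and Mrps2. The lowest 5 were Mrpl33, Mrpl48, Mrps35, Mrpl43 and Mrps30, all at or under a mean of 3.33 FPKM.

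The low place of Mrpl33 depended on the gene length behind FPKM. The length used for it was 7326 bases, all exons of the annotated gene, whereas its longest protein-coding transcript has 478 bases, a ratio of 15.3. Per length of the coding transcript, Mrpl33 moved from rank 77 to rank 25 among the members, at 23.2 on the same scale. This second scale was chosen after seeing the data. It assigns all reads of a gene to that transcript, so that reads from other exons would raise the value, which was not checked. The ratio of both lengths was over 5 for 5 members (Mrpl33, Mrpl23, Mrpl13, Mrps10 and Mrpl42) and its median was 1.37. Mrpl12 was the highest on both scales, Mrpl42 moved from rank 13 to rank 3, and Mrpl43 was the lowest per coding transcript. The change of length does not alter the ratio of FPKM between groups. Log2 fold changes, taken after a small constant was added, can shift with it, as can values corrected for length.

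**Figure D1:**
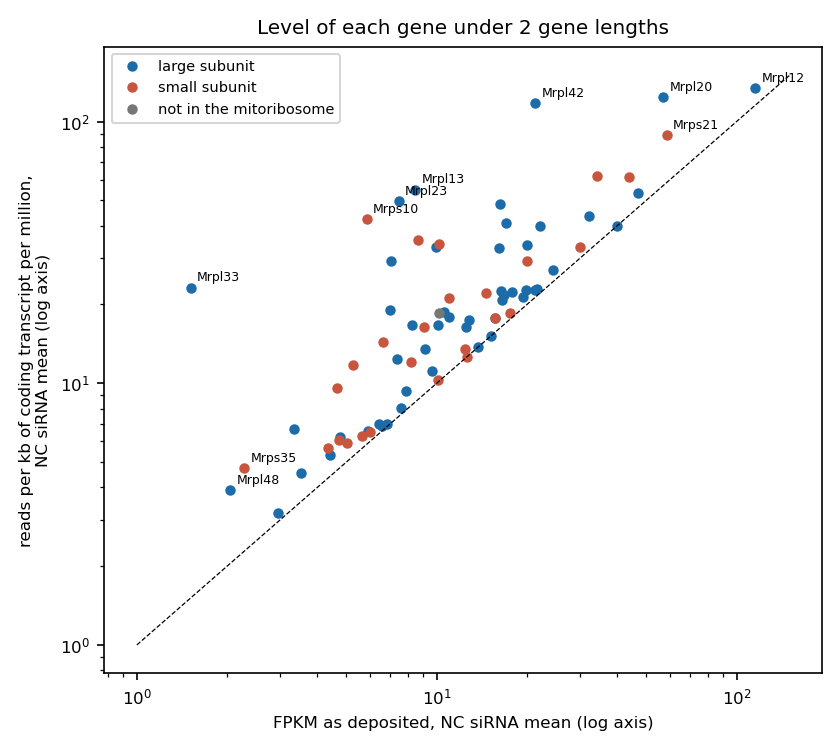
Mean level of each of the 77 genes with NC siRNA, as FPKM per all exons (x axis) and per length of the longest coding transcript (y axis), both on log axes. The dashed line marks equal values, points are genes coloured by subunit, and Mrpl33, at 1.51 FPKM, lies 15.3-fold above the line.

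With SFRP2 siRNA, the mitochondrial ribosomal protein genes stayed close to their NC levels. None of the 77 was called by limma at an adjusted p under 0.05 over all genes, where 0.0% of 12017 genes tested were called. On the log2 scale their differences ran from -0.42 to 0.15 around a median of -0.04, where the median of all genes tested was -0.01. At an unadjusted p under 0.05 there were 11 members (14.3%), all lower with SFRP2 siRNA, against 18.5% of all genes in either direction and 10.7% lower. Voom on the recovered reads called 0 members, and 7 higher and 35 lower genes over the whole table. The libraries did not overlap between the groups for 12 members (15.6%), again all lower, against 24.7% of all genes in either direction and 13.9% lower. The lower shares of the 77 were thus close to the background, and those for both directions together lay under it. No member was higher by either count, where 929 and 1309 of the 12017 genes were. The lower share was larger in the small subunit, with 6 of 26 genes at an unadjusted p under 0.05 and 7 without overlap. In the large subunit these were 5 and 5 of 50 genes. The median log2 fold changes were -0.10 for the small and -0.02 for the large subunit. This difference between the subunits was not tested. At an unadjusted p under 0.05, 37 of 82 cytosolic ribosomal protein genes were lower and 1 was higher. Of 76 nuclear respiratory chain genes, 31 were lower and 3 were higher.

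The members with the smallest unadjusted p in the lower direction were Mrpl28, Mrps25, Mrpl20 and Mrpl23. Mrpl28, a large subunit protein with a bacterial counterpart, was 16.9, 16.4 and 17.1 FPKM with NC siRNA and 14.5, 15.002 and 13.6 FPKM with SFRP2 siRNA. The libraries did not overlap, and the log2 fold change was -0.23 ± 0.05 (SE) with a limma adjusted p of 0.178. Mrps25, a protein of the small subunit, was 13.0, 12.0 and 12.4 FPKM with NC siRNA and 10.7, 10.9 and 10.9 FPKM with SFRP2 siRNA. Mrpl20, an rRNA-binding protein of the large subunit, was 59.6, 54.3 and 57.0 FPKM against 52.8, 45.5 and 46.0 FPKM. Mrpl23, at the exit of the polypeptide tunnel, was 7.48, 6.71 and 8.22 FPKM against 6.23, 6.23 and 5.88 FPKM. In these 3 genes each SFRP2 siRNA library was below each NC siRNA library, and the limma adjusted p was 0.178 for Mrps25, 0.182 for Mrpl20 and 0.186 for Mrpl23. Mrps34, a mitochondria-specific protein of the small subunit singled out after its value was seen, had the largest difference of the 77 (-0.42 ± 0.14 SE, limma adjusted p = 0.209).

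In the higher direction the smallest unadjusted p belonged to Mrps31, Mrpl50, Mrps30 and Mrpl34, with log2 fold changes of 0.14, 0.15, 0.12 and 0.08. Their libraries overlapped with those of the NC siRNA group, and no limma adjusted p was below 0.324. The SE of the members' log2 fold changes lay between 0.05 and 0.18. A p that missed the threshold does not show that the values did not differ.

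With RAB6A siRNA, the genes of the mitochondrial ribosome moved in both directions. Limma called 28 of the 77 members higher (36.4%) and 23 lower (29.9%), and 26 were not called. Over all 12712 genes tested, 74.1% were called, 37.6% higher and 36.5% lower, so that the share of members called, 66.2%, was not above the background. The libraries of the 2 groups did not overlap for 56 members (72.7%) against 77.4% of all genes. The median log2 fold change was 0.12, against 0.03 over all genes tested. With a correction for GC content and length this median turned to -0.0499 (all genes -0.0208), with 30 members higher and 30 lower, and without the second RAB6A siRNA library it was 0.067. With an absolute log2 fold change over 1 in addition, 7 members (9.09%) were DEGs against 30.1% of all genes. Of the 28 and 23 called members, 18 and 16 were called in the same direction under all 18 other settings tried.

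**Figure D2:**
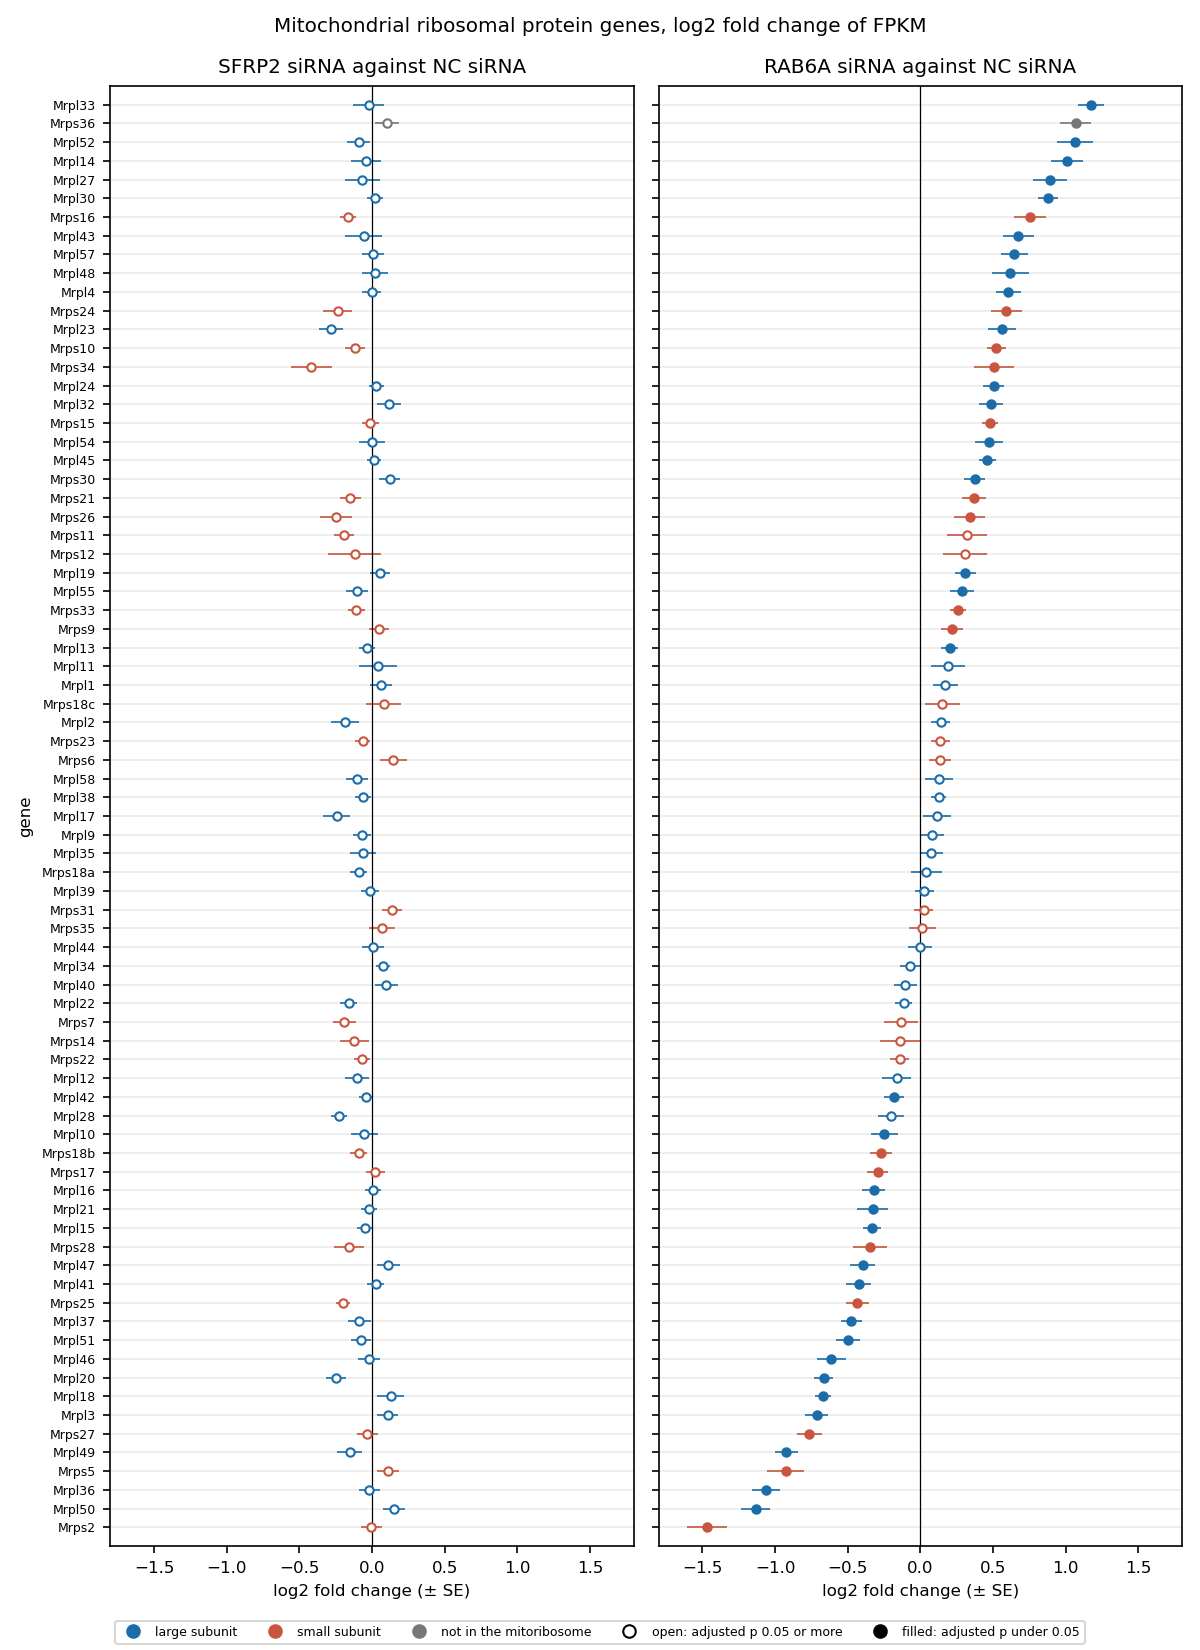
Log2 fold change with its SE for each of the 77 genes, SFRP2 siRNA against NC siRNA on the left and RAB6A siRNA against NC siRNA on the right, both from the same NC libraries. Colours give the subunit and filled points an adjusted p under 0.05: no gene is filled on the left, and on the right they run from -1.47 for Mrps2 to 1.17 for Mrpl33.

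The large subunit gave 18 genes higher and 16 lower of 50, and the small subunit 9 higher and 7 lower of 26, with Mrps36 as the remaining higher gene. The medians were 0.08 for the large and 0.13 for the small subunit on the log2 scale. Of the 46 proteins with a bacterial counterpart, 17 rose and 13 fell, and of the 30 specific to mitochondria, 10 rose and 10 fell. Members of both subunits and of both origins were thus among the rises and the falls.

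The largest fall was that of Mrps2 (ENSMUSG00000035772), a small subunit protein with a bacterial counterpart. It was 40.5, 43.9 and 46.4 FPKM with NC siRNA, 41.2, 42.3 and 47.0 with SFRP2 siRNA and 13.1, 15.1 and 19.5 with RAB6A siRNA. All 3 RAB6A siRNA libraries lay far below the other 6. The log2 fold change was -1.47 ± 0.14 (SE), or 2.77-fold lower, with a limma adjusted p of 5.04e-05. Mrps5, a small subunit protein near the mRNA entry, was 20.0, 21.9 and 18.04 FPKM with NC siRNA and 8.88, 10.2 and 12.4 FPKM with RAB6A siRNA. Mrps27, a pentatricopeptide repeat protein of the small subunit whose promoter is shown above, was 14.9, 14.6 and 17.4 FPKM against 8.62, 9.05 and 9.76 FPKM. Neither gene overlapped between the groups, and their log2 fold changes were -0.93 ± 0.13 and -0.77 ± 0.09 (SE), with limma adjusted p of 0.000377 and 0.000117.

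In the large subunit the largest falls were those of Mrpl50, Mrpl36 and Mrpl49. Mrpl50 (ENSMUSG00000044018), specific to mitochondria, was 14.8, 14.0 and 12.4 FPKM with NC siRNA and 5.43, 6.64 and 6.53 FPKM with RAB6A siRNA (-1.14 ± 0.10 SE, limma adjusted p = 4e-05). Mrpl36 (ENSMUSG00000021607), a small zinc-binding protein with a bacterial counterpart, was 15.6, 15.6 and 18.2 FPKM against 7.09, 8.56 and 7.89 FPKM (-1.06 ± 0.09 SE, limma adjusted p = 3.76e-05). Mrpl49, specific to mitochondria, was 22.4, 20.7 and 21.6 FPKM against 10.7, 12.6 and 10.7 FPKM (-0.92 ± 0.08 SE, limma adjusted p = 3.07e-05). The groups did not overlap for any of these 3 genes. With SFRP2 siRNA the same genes were at 15.2 ± 0.621, 16.2 ± 0.263 and 19.4 ± 2.37 FPKM (SD, n = 3), within or next to the NC values.

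The largest rise was that of Mrpl33 (ENSMUSG00000106918), a small protein of the large subunit with a bacterial counterpart. It was 1.61, 1.53 and 1.39 FPKM with NC siRNA, 1.48, 1.45 and 1.52 with SFRP2 siRNA and 3.53, 3.52 and 3.53 with RAB6A siRNA. The RAB6A siRNA libraries were 2.25-fold higher with little spread (1.17 ± 0.09 SE, limma adjusted p = 1.9e-05), from 387 to 975 reads in a library. Mrpl52 (ENSMUSG00000010406), a mitochondria-specific protein of the central protuberance, was 17.6, 16.3 and 17.2 FPKM with NC siRNA and 41.2, 37.9 and 29.1 FPKM with RAB6A siRNA. It was 2.09-fold higher, and RAB6A siRNA replicate 3 was the lowest of that group while still above every NC siRNA library. Mrpl14 (ENSMUSG00000023939), which lies at the face towards the small subunit, was 8.46, 8.45 and 10.6 FPKM against 20.4, 17.5 and 17.5 FPKM, or 2.01-fold higher. The limma adjusted p was 0.000142 for Mrpl52 and 9.35e-05 for Mrpl14. Exons of Mrpl14 overlap those of Tmem63b on the other strand, which rose by 1.06.

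Mrpl27, whose bacterial counterpart reaches into the peptidyl transferase centre, was 10.7, 14.4 and 12.6 FPKM with NC siRNA and 25.3, 23.3 and 21.3 FPKM with RAB6A siRNA (0.89 ± 0.12 SE). Mrpl30, also with a bacterial counterpart, was 9.96, 10.1 and 9.78 FPKM against 18.8, 19.5 and 16.9 FPKM (0.88 ± 0.07 SE). Mrps36 (ENSMUSG00000061474), the dehydrogenase subunit, was 9.06, 10.8 and 10.7 FPKM against 22.1, 23.5 and 18.8 FPKM, or 2.10-fold higher. None of these 3 overlapped between the groups, and the limma adjusted p was 0.000255, 1.79e-05 and 6.16e-05. In the small subunit proper the largest rise was that of Mrps16, 0.75 ± 0.11 (SE) on the log2 scale.

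**Figure D3:**
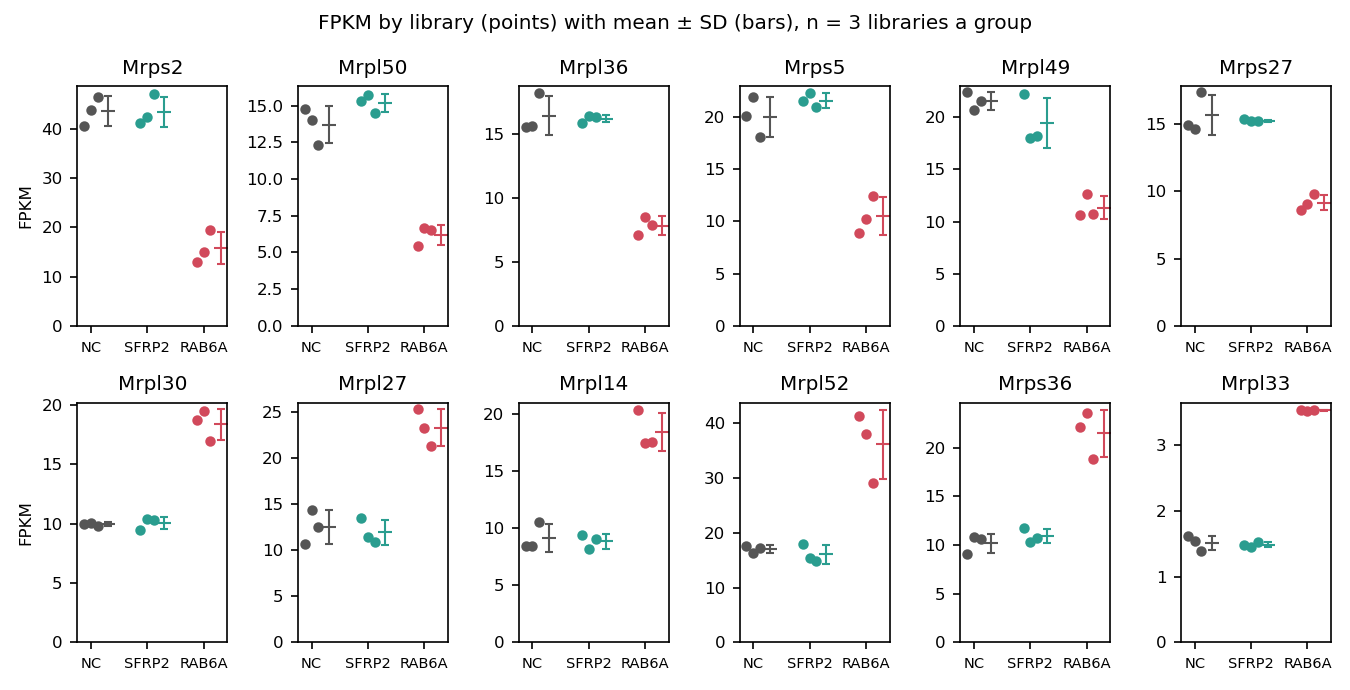
FPKM in each library (points) with the mean ± SD of 3 libraries (bars) for the 6 genes with the largest falls (top) and the 6 with the largest rises (bottom) with RAB6A siRNA, each axis starting at 0. In every panel the RAB6A siRNA points stand apart from the NC siRNA points, as for Mrps2 at 13.1 to 19.5 against 40.5 to 46.4.

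The other rises lay between 0.20 for Mrpl13 and 0.75 for Mrps16 on the log2 scale. Mrps16, a small subunit protein with a bacterial counterpart, was 5.57, 5.72 and 5.63 FPKM with NC siRNA and 10.1, 10.9 and 8.01 FPKM with RAB6A siRNA. Mrpl57, specific to mitochondria, was 6.81, 6.69 and 6.99 FPKM against 11.2, 11.8 and 9.35 FPKM. Mrps15, at the subunit interface in bacteria, was 34.6, 35.2 and 33.2 FPKM against 50.1, 47.4 and 46.3 FPKM. These 3 genes, picked after their values were seen, did not overlap between the groups. Mrps16 and Mrpl57 were called higher under all 18 other settings tried, and Mrps15 was not. The other falls lay between -0.71 for Mrpl3 and -0.18 for Mrpl42. Mrpl51, specific to mitochondria, was 8.41, 7.72 and 7.55 FPKM against 6.07, 5.45 and 5.15 FPKM, again without overlap.

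The 26 members that were not called had log2 fold changes from -0.21 for Mrpl28 to 0.32 for Mrps11. Mrpl44, which resembles a ribonuclease, was 9.06, 10.0 and 9.91 FPKM with NC siRNA and 9.72, 10.5 and 8.71 FPKM with RAB6A siRNA. Mrpl58, a peptidyl-tRNA hydrolase that frees stalled ribosomes, was 3.61, 3.51 and 3.46 FPKM against 4.13, 4.12 and 3.40 FPKM. Mrps35, of the small subunit and among the lowest members, was 2.16, 2.39 and 2.28 FPKM against 2.18, 2.47 and 2.26 FPKM. The groups overlapped for each of these 3 genes.

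Members that work side by side in the large subunit moved in both directions. In the stalk that recruits translation factors, Mrpl10 fell by 0.25 on the log2 scale, and neither Mrpl11 (0.19) nor Mrpl12 (-0.16) was called. With a correction for GC content and length all 3 stalk genes were called, 1 higher and 2 lower. Around the peptidyl transferase centre, where peptide bonds form, Mrpl27 rose while Mrpl3 and Mrpl16 fell by 0.71 and 0.32. Mrpl2, the remaining gene of these 4, was at 0.14 and not called, and its value turned to -0.43 with a correction for GC content and length. The call for Mrpl16 was lost with that correction. Mrpl3 was 8.08, 6.96 and 7.05 FPKM with NC siRNA and 4.30, 4.43 and 4.61 FPKM with RAB6A siRNA, with no overlap.

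At the polypeptide exit and membrane side, 3 of 5 genes rose and 1 fell. Mrpl45, which holds the mitoribosome at the inner membrane, was 21.9, 20.2 and 21.7 FPKM with NC siRNA and 30.6, 29.4 and 28.1 FPKM with RAB6A siRNA (0.46 ± 0.06 SE). Mrpl24 and Mrpl23 rose by 0.50 and 0.56, Mrpl47 fell by 0.40, and Mrpl22 (-0.12) was not called. In the central protuberance, Mrpl52, Mrpl48 and Mrpl55 rose and Mrpl18 and Mrpl46 fell, of 7 genes. Mrpl18 went from 19.6, 19.6 and 20.1 FPKM to 12.3, 12.1 and 12.8 FPKM (-0.67 ± 0.05 SE). Its exons overlap those of Tcp1 on the other strand, which was higher in level and fell by 0.69. The rise of Mrpl55 (0.29) turned to -0.19 with the correction for GC content and length.

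The 3 paralogs of the bacterial S18 protein occupy different sites of the particle. Mrps18b, in the small subunit, fell by 0.27 (limma adjusted p = 0.012), whereas Mrps18c in the small subunit and Mrps18a in the large subunit were at 0.15 and 0.04 and not called. Among the most abundant members, Mrps21 went from 58.6, 54.8 and 62.1 FPKM with NC siRNA to 83.1, 75.04 and 68.5 FPKM with RAB6A siRNA (0.37 ± 0.08 SE). This direction also turned with the correction for GC content and length (-0.27). Mrpl20 and Mrpl41 fell by 0.67 and 0.43. Mrpl12, called with this correction but not in the fit without it, was at 108, 115 and 88.4 FPKM with RAB6A siRNA. Of the 5 mitoribosomal proteins with names outside the rule, Dap3 (0.44) and Aurkaip1 (0.40) rose, Ptcd3 and Gadd45gip1 each fell by 0.34, and Chchd1 (0.10) was not called. The call for Aurkaip1 was lost with the correction for GC content and length (0.11). That for Gadd45gip1 was lost with voom on the recovered reads, without the filter on low values and with the replicate number as a block. It was also lost without library 2 or library 3 of NC siRNA or of RAB6A siRNA.

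The length and GC content of a gene can affect such values. Across the 77 members, Spearman's rho of the log2 fold change with exon length was -0.04 for RAB6A siRNA and 0.16 for SFRP2 siRNA. With GC content it was 0.09 and -0.35. With the length of the coding transcript it was -0.27 and 0.20, and with the level in NC siRNA -0.34 and -0.09. The NC siRNA libraries enter both the level and the fold change. Across all named genes tested, rho with length was -0.21 for RAB6A siRNA and rho with GC content -0.48 for SFRP2 siRNA. Genes within a library are not independent replicates, so that no p is given. The 28 higher members had a median coding transcript of 1110 bases and the 23 lower members 1708 bases, with overlapping ranges. With a correction for GC content and exon length, 24 of the 28 and 19 of the 23 were still called in the same direction. Mrpl54, Mrpl55 and Mrps21 were called in the other direction.

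Many of these genes share exonic sequence with a neighbour: 32 of the 77 do, and 12 of the 28 higher and 12 of the 23 lower members are among them. Whether strand was used in counting is not given in the sources used here, and without strand the reads of such pairs cannot be told apart. Among 19 pairs of a member and an overlapping protein-coding gene on the opposite strand, both genes were called in 14 with RAB6A siRNA, in the same direction in 9 and in the other direction in 5. Mrpl48 overlaps Rab6a itself. It was 2.18, 2.02 and 1.94 FPKM with NC siRNA and 3.15, 3.79 and 2.74 FPKM with RAB6A siRNA, a rise of 0.62 beside the fall of Rab6a.

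The pairs below were picked after their values were seen. Among the 9 pairs called in the same direction, Mrpl18 and Tcp1 fell by 0.67 and 0.69, and Mrpl49 and Syvn1 by 0.92 and 0.50. Mrpl14 and Tmem63b rose by 1.01 and 1.06. Other pairs parted, or only a single gene of the pair was called. Mrpl43 rose by 0.67 while Twnk, the helicase of mitochondrial DNA on the other strand, fell by 1.57 from 7.35 to 2.40 FPKM. Mrpl27 rose by 0.89 while Eme1, which encodes a DNA repair nuclease subunit, fell by 1.96. Mrpl36 fell by 1.06 while Ndufs6, a complex I subunit with exons on the other strand, was at 0.09 and not called. Mrpl46 was 19.3, 15.9 and 18.5 FPKM with NC siRNA and 13.0, 11.2 and 10.7 FPKM with RAB6A siRNA, a fall of 0.61. Mrps11, which starts from the promoter region shared with Mrpl46, was 4.64, 4.38 and 4.91 FPKM against 6.78, 6.21 and 4.65 FPKM, with overlap and an adjusted p from limma of 0.0677. Of the members without any overlapping gene, 16 rose and 11 fell.

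The motifs of the promoters were counted for the members that moved with RAB6A siRNA. The E-box was in 0 of 23 higher and 3 of 21 lower members (14.3%) with a promoter entry, the last being Mrpl36, Mrpl20 and Mrpl37. It was in 12.1% of 8483 genes tested. The YY1 motif was in 1 higher (4.35%) and 4 lower members (19.0%), against 4.06% of the genes tested. The GABP motif was in 6 (26.1%) and 4 (19.0%) against 10.4%, and the NRF1 motif in 1 (4.35%) and 2 (9.52%) against 4.53%. Of the factors named for these motifs, Myc went from 93.0, 90.9 and 92.5 FPKM with NC siRNA to 6.32, 6.16 and 5.76 FPKM with RAB6A siRNA (-3.90 ± 0.06 SE, limma adjusted p = 1.55e-07). Nrf1 fell by 0.68, Gabpa by 0.67 and Gabpb2 by 1.59, and Yy1 was not called (0.00). Whether these levels bear on the members was not tested.

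Summed over the 77 genes, FPKM lay close together in the 3 groups. The members summed to 1193, 1190 and 1201 FPKM with NC siRNA, 1189, 1138 and 1124 FPKM with SFRP2 siRNA and 1233, 1248 and 1136 FPKM with RAB6A siRNA. The RAB6A siRNA libraries lay on both sides of the NC siRNA libraries, and all SFRP2 siRNA libraries lay below them, the closest by about 1 FPKM. The large subunit summed to 2.14 to 2.33 times the small subunit in every library.

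The sums were taken without a test and depended on the scale. As TPM, which sets each library's total to the same value, the members summed to 3247 ± 50.3 with NC siRNA, 3130 ± 137 with SFRP2 siRNA and 2959 ± 105 with RAB6A siRNA (SD, n = 3). On this scale all RAB6A siRNA libraries lay below the NC siRNA libraries, and the SFRP2 siRNA libraries overlapped with them. SFRP2 siRNA library 1 was at 3278, against 3197 and 3246 in NC siRNA libraries 2 and 3. Total FPKM was higher with RAB6A siRNA, at 399883 to 410877 per library, than with NC siRNA, at 361817 to 372307. Genes of cytosolic ribosomal proteins summed to 15191, 15325 and 15707 FPKM with NC siRNA and 33260, 34216 and 29056 FPKM with RAB6A siRNA. In that list 75 of 81 genes tested rose and 1 fell with RAB6A siRNA, and the median was 1.09 on the log2 scale against 0.12 for the mitochondrial ribosome. Of 78 nuclear genes of the respiratory chain tested, 48 rose and 9 fell, with a median of 0.53. With the correction for GC content and length these 3 medians were 0.88, -0.0499 and 0.0889, and 33 respiratory chain genes rose and 24 fell.

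**Figure D4:**
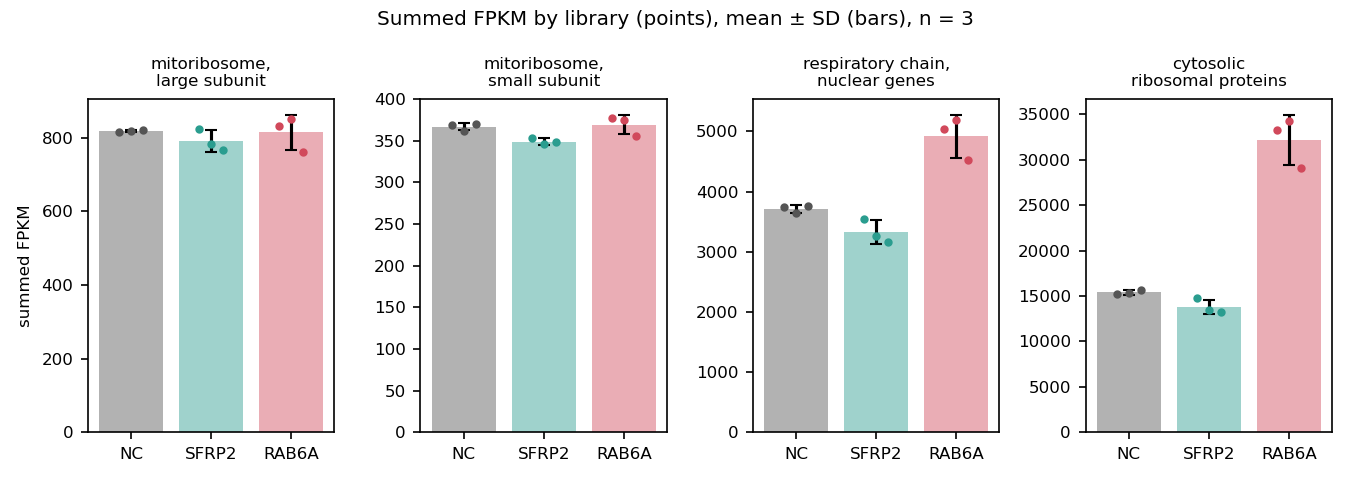
Summed FPKM in each library (points) with the mean ± SD of 3 libraries (bars) for the large and small subunit of the mitoribosome, nuclear respiratory chain genes and cytosolic ribosomal protein genes, each axis starting at 0. The RAB6A siRNA bars stand clear of NC siRNA for cytosolic ribosomal protein genes, at 29056 to 34216 against 15191 to 15707. They also do for respiratory chain genes, at 4519 to 5197 against 3641 to 3760, and not for either mitoribosomal subunit on this FPKM scale.

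The nuclear genes that build and serve the mitoribosome were counted by list with RAB6A siRNA, against 74.1% of all genes called, 37.6% higher and 36.5% lower. Among 25 genes of mitoribosome assembly and rRNA modification tested, 5 rose and 16 fell (84.0% called), with a median log2 fold change of -0.50 against 0.03 over all genes tested. Fastkd5, which processes mitochondrial RNA, went from 2.26, 2.11 and 1.99 FPKM with NC siRNA to 0.146, 0.175 and 0.294 FPKM, and Mrm2, which methylates the large rRNA, fell by 2.29. Rbfa, a maturation factor of the small subunit, and Mpv17l2, an assembly factor of the large subunit, rose by 1.21 and 0.94. The aminoacyl-tRNA synthetases of mitochondria gave 3 rises and 9 falls among 17 genes (70.6% called), and 3 and 7 with the correction for GC content and length. Pars2, for proline, fell by 2.11 and Yars2, for tyrosine, by 1.15, and Lars2, for leucine, and Nars2, for asparagine, rose by 0.63 and 0.60. The call for Lars2 was lost without the first RAB6A siRNA library (0.45, limma adjusted p = 0.093), and also without RAB6A siRNA library 2, NC siRNA library 2 or NC siRNA library 3. Leaving out the filter on low values or the trend of eBayes lost it as well.

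Of 14 translation factors and related genes tested, 3 rose and 7 fell (71.4% called). Shares called in this list and among the synthetases were thus not above the background. Lrpprc, which stabilizes mitochondrial mRNAs, was 10.2, 10.2 and 9.63 FPKM with NC siRNA and 3.28, 3.67 and 3.97 FPKM with RAB6A siRNA. Gfm1, the elongation factor G of mitochondria, went from 27.5, 27.1 and 26.9 FPKM to 13.0, 11.5 and 15.8 FPKM, and the recycling factor Gfm2 rose by 0.60. Of 7 genes of mitochondrial DNA replication and transcription tested, 6 fell, among them Polg by 1.21, and Polg2 rose by 1.01. Of 9 regulators of nuclear genes for mitochondria tested, 6 fell and 1, Esrra (0.60), rose. With SFRP2 siRNA limma called 0 genes in each of these lists, with 1 or 2 genes per list at an unadjusted p under 0.05, and voom called 0 genes there as well.

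**Figure D5:**
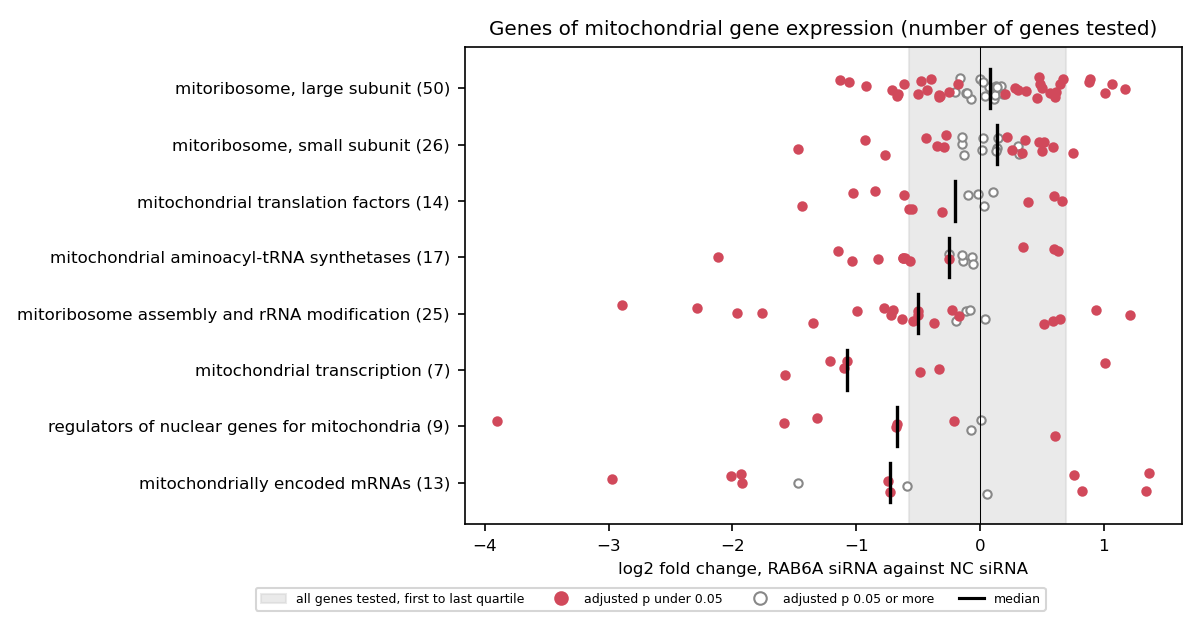
Log2 fold change of each gene tested with RAB6A siRNA against NC siRNA, by group of genes, with filled points at an adjusted p under 0.05, the median as a bar and the middle of all genes tested as a grey band. The medians lie at 0.08 and 0.13 for the large and small subunits and at -0.50 for assembly and rRNA modification genes.

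The RNA partners and templates of the mitoribosome were read in the same libraries, which were made with an mRNA kit. The small subunit rRNA mt-Rnr1 was 609, 578 and 434 FPKM with NC siRNA and 895, 800 and 802 FPKM with RAB6A siRNA, a rise of 0.64 that turned to -0.26 with the correction for GC content and length and was not called after quantile normalization (0.19, limma adjusted p = 0.203). The large subunit rRNA mt-Rnr2 went from 409, 368 and 259 FPKM to 149, 136 and 122 FPKM, a fall of 1.32. Of the 13 mitochondrially encoded mRNAs, 4 rose and 6 fell: mt-Co1 and mt-Atp8 rose by 1.34 and 1.37, and mt-Nd1 and mt-Nd2 fell by 2.97 and 2.01. With the correction for GC content and length 1 rose and 10 fell, and mt-Atp8 turned to -0.62. The call for mt-Co1 was lost after quantile normalization (0.22, limma adjusted p = 0.419). mt-Nd1 was at 18581, 22539 and 19507 FPKM with NC siRNA and at 2515, 2314 and 2894 FPKM with RAB6A siRNA. Nuclear copies of mitochondrial sequence can split the reads of these genes in counting, so that their levels are uncertain.

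Set against each other, SFRP2 siRNA and RAB6A siRNA gave 21 members higher and 32 lower with SFRP2 siRNA, where 73.4% of 12764 genes tested were called, 35.8% higher and 37.6% lower. The share of members called was 68.8%, and the median log2 fold change was -0.13 against -0.03 over all genes tested. With the correction for GC content and length it was -0.0674 (all genes 0.0137), and without the first or second RAB6A siRNA library it was -0.0822 or -0.0795. Mrps2 was 1.47 higher on the log2 scale with SFRP2 siRNA, and Mrpl33 fell by 1.20 (limma adjusted p = 1.6e-05). Mrps34 fell by 0.92 and Mrpl23 by 0.84 in this comparison, and both were also among the 11 genes with the lower unadjusted p against NC siRNA. Both comparisons with NC siRNA share its 3 libraries, and their values are given side by side for that reason.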

How the data were processed

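For 9 RNA-seq libraries, the values deposited by the authors are FPKM of each gene. HISAT2, featureCounts and Subread are named in the submitters' processing notes, and the genome build, annotation and use of strand are not given in the sources used here. Of 28137 Ensembl identifiers, 27533 were named from GENCODE M21. The deposited FPKM are not counts, so the count test of the study's methods was not used. A pseudocount of 0.1 was added, and log2 values were tested two-sided with limma (version 3.58.1, R 4.3.3), using lmFit and a trended eBayes, for genes with a mean of at least 0.5 FPKM over the 6 libraries compared, with Benjamini-Hochberg adjustment over all genes tested. A fold change on this scale understates that of low genes. A gene was called at an adjusted p under 0.05, and a DEG also had an absolute log2 fold change over 1. Multiplied by exon length, values of 27083 genes (98.4% of those named) were whole reads within 0.03 in all 9 libraries, all 77 members included, and these reads gave the depth and the voom alternative. The scripts were tested on simulated data.

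The members and the gene lists were chosen with earlier results of these data known, and textbook knowledge of each pathway gave the lists. Named members were the 6 with the largest log2 fold change in each direction among those called without overlap, or, where none was called, the 4 with the smallest unadjusted p in each direction, the 5 highest and 5 lowest with NC siRNA, and lists by role. From the other lists, up to 2 called genes with the largest change in each direction were named. 1 further gene that meets the naming rule was not analysed here. Alternatives changed the pseudocount, filter, scaling, trend, libraries, block, GC and length, and the test. Groups of 3 libraries were not tested for outliers. Python 3.11.15, pandas 2.3.3 and scipy 1.17.1 were used for the other steps.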

Additional observations from a re-analysis of the deposited data

How the results depend on the processing

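No alternative called a member with SFRP2 siRNA. Correction for GC content and length changed most. The median log2 fold change of the members moved to -0.0179 with SFRP2 siRNA, turned to -0.0499 with RAB6A siRNA and moved to -0.0674 between both siRNAs. With RAB6A siRNA against NC siRNA, Mrps21 turned to -0.27, Mrpl2 to -0.43, Mrpl54 to -0.33 and Mrpl55 to -0.19. Between SFRP2 and RAB6A siRNA, Mrpl28 turned to 0.58, Mrps25 to -0.0328, Mrps21 to 0.16, Mrpl2 to 0.33, Mrpl22 to 0.39, Mrpl38 to 0.14, Mrpl54 to 0.43 and Mrpl55 to 0.14. The replicate block added to this correction left these values and changed calls: Mrpl55 lost its own in both comparisons (limma adjusted p 0.0493 to 0.0693 and 0.0408 to 0.0551), and the turn of Mrpl38 was called (0.108 to 0.0479). The cause was not tested. Over all genes with SFRP2 siRNA, voom on the recovered reads called 7 higher and 35 lower, and leaving out each library in turn gave 0 to 1 higher. Between SFRP2 and RAB6A siRNA the median of the members was -0.10 with median-of-ratios scaling, -0.16 with quantile normalization, -0.15 with voom and -0.172 to -0.0795 when each library was left out in turn. The summed level was 3247, 3130 and 2959 as TPM for NC, SFRP2 and RAB6A siRNA, and 1184 for NC siRNA with median-of-ratios scaling. Deviations of same-numbered libraries from their group means correlated at -0.06 to 0.05. With 3 libraries in a group, these values cannot show whether same-numbered libraries were handled together. With the replicate number as a block, 28 members rose and 21 fell with RAB6A siRNA.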
